A study of Mus musculus with 4 samples.

Results

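The genes described here are 8 genes of the red-cell lineage, *Gata1*, *Klf1*, *Zfpm1*, *Slc4a1*, *Ank1*, *Sptb*, *Epb42* and *Rhag*, chosen by name among the 39186 genes of the deposited table, which lists all 8. They were measured by RNA sequencing of LSK cells (lineage-negative, Sca-1+, c-Kit+), a population enriched for hematopoietic stem cells, sorted from the fetal liver of C57BL/6 mouse embryos, which the study dissected at E14.5. There were 2 *Pich*-KO samples and 2 *Pich*-WT samples. *Pich* encodes PICH, a DNA translocase of mitosis. The *Pich*-KO line is a germline knockout with a small deletion at the beginning of the second exon, so the loss is not confined to blood cells. The sources used here do not say whether the samples of a group came from separate embryos or litters, or how many embryos gave each one, so p-values measure only the spread between these samples.

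Red-cell precursors are made under the control of a few transcription factors. GATA1 binds GATA sequences, FOG-1, the product of *Zfpm1*, is its cofactor, and KLF1 binds CACCC sequences in the genes of globin, heme and membrane proteins. The red-cell membrane is held up by a spectrin network. Band 3, the anion exchanger made from *Slc4a1*, is tied to beta-spectrin (*Sptb*) by ankyrin-1 (*Ank1*), with protein 4.2 (*Epb42*) beside it, and RhAG (*Rhag*) is the core of the Rh complex. Loss of the ankyrin, spectrin, band 3 or protein 4.2 genes is known to cause spherocytic anemia.

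Of the 8 genes, 5 were lower and 0 higher in *Pich*-KO LSK cells at an adjusted p of 0.05 (limma, Benjamini-Hochberg adjustment over all 32428 genes tested). *Slc4a1* fell most, to a level 5.77-fold below that of *Pich*-WT, and *Epb42* came next at 3.75-fold below. *Klf1*, *Zfpm1* and *Rhag* fell by less. *Gata1*, *Sptb* and *Ank1* did not pass the test. The genes of band 3 and protein 4.2 were thus called lower. Those of beta-spectrin and of ankyrin, which holds band 3 to the skeleton, were not. Whether the genes differed from each other in their change was not tested. Among all genes tested, 9.6% were lower and 7.58% higher by the same rule, and among the 10544 genes that averaged 100 or more, to which all 8 genes belong, 22.4% were lower and 21.1% higher. The median log2 fold change of the 8 genes was −0.73, against 0.02 for all genes tested. In bulk samples, fewer cells of the red-cell lineage and less of these RNAs in each cell cannot be told apart.

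The values are normalized counts, that is, the reads on a gene over the size factor of its library. The libraries held 14703215 to 20933919 reads on genes, and the 8 genes had from 154 reads (*Zfpm1*, *Pich*-KO sample 2) to 16590 reads (*Slc4a1*, *Pich*-WT sample 1). *Ercc6l*, the gene of PICH, had 1142 and 1232 normalized counts in the *Pich*-KO samples against 772 and 661 in the *Pich*-WT samples, and since the small deletion leaves a transcript, this does not check the labels. *Pich*-WT sample 2 had 699 reads on *Xist* and 0 over a set of Y-linked genes, where the other samples had 4 to 13 and 1607 to 2848, so the *Pich*-WT samples were not from the same embryos. For the *Pich*-KO samples this is not known, and the spread between them may be technical.

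**Figure D1:**
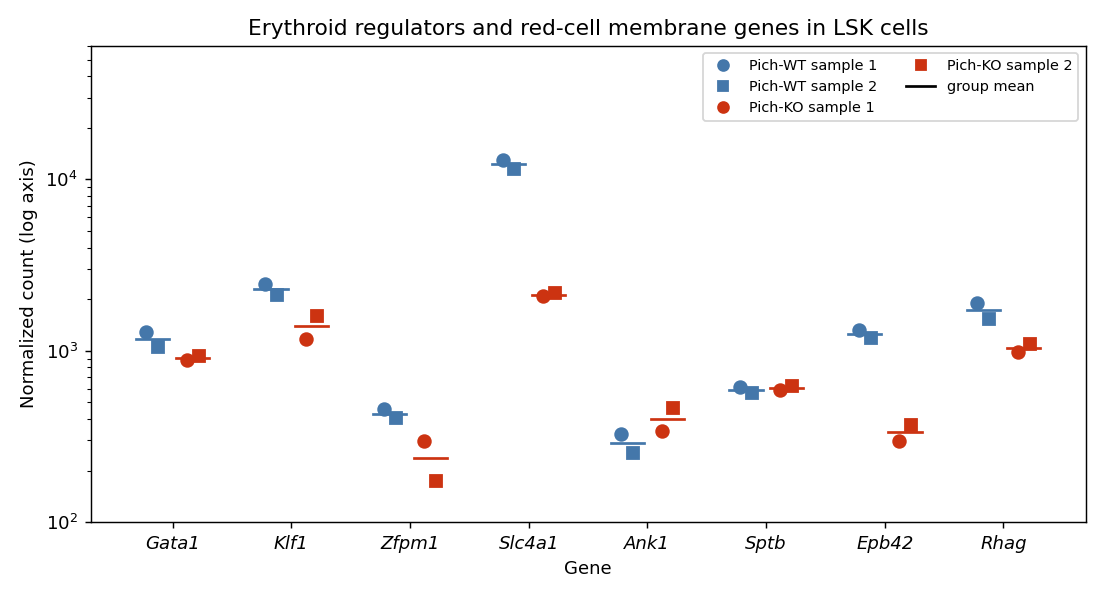
Normalized count (vertical, log axis) of each of the 8 genes in each sample, with *Pich*-WT in blue, *Pich*-KO in red, circles for sample 1, squares for sample 2 and a line at each group mean. *Slc4a1* and *Epb42* stand farthest apart between the groups, while the samples of *Sptb* are mixed.

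The sequence before the start of transcription is shown for *Klf1*, *Rhag* and *Epb42*, which fell and hold a GATA sequence there. It is also shown for *Sptb*, which did not pass the test and holds none. *Zfpm1*, which was called lower too, holds none either, and its sequence is not shown. That of *Gata1*, which did not pass and holds none, is also left out. Whether a GATA sequence goes with the change of a gene was not tested. RefSeq promoters on GRCm38.p6 were matched for 6 of the 8 genes, all but *Slc4a1* and *Ank1*. Each sequence is written 5′ to 3′ on the strand of the gene. It begins 250 bases before the RefSeq start and ends before the first base that GENCODE M21 places in an exon of the gene. Capitals mark a match to the letters GATA with A or T before them and A or G after them, on either strand. The *Klf1* sequence is chr8:84901732-84901927 on the plus strand, that of *Rhag* is chr17:40810899-40811125 on the plus strand, that of *Epb42* is chr2:121037073-121037127 on the minus strand, and that of *Sptb* is chr12:76710548-76710797 on the minus strand.
Klf1: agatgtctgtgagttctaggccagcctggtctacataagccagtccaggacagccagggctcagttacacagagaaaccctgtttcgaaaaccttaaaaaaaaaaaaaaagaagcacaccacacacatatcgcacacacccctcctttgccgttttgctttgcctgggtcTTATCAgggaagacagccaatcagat
Rhag: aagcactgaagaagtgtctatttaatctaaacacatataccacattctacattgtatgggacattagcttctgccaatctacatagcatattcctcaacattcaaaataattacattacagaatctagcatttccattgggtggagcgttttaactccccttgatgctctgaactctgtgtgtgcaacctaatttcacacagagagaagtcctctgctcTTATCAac
Epb42: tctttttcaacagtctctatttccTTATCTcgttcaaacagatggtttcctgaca
Sptb: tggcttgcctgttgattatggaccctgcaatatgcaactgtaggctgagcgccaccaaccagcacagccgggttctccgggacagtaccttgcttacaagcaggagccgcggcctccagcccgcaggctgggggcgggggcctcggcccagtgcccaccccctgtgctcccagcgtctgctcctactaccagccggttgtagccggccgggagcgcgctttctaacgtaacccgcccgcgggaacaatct

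Over the whole 250 bases, *Klf1*, *Rhag* and *Epb42* each had 1 such GATA match, at 80 to 75, 31 to 26 and 226 to 221 bases before the RefSeq start, and *Gata1*, *Zfpm1* and *Sptb* had 0. Of 32851 RefSeq promoter windows of the same length, 26.5% held at least 1. The letters CCNCNCCC, a pattern for CACCC sequences that also takes in GC boxes, were matched 3 times before *Gata1* and 4 times before *Zfpm1*. They were matched 3 times before *Sptb*, where 2 matches overlap, and 0 times before the others. These letters were in 45.9% of all windows. The shorter run CACCC was not counted, and the printed *Klf1* sequence and, on the other strand, that of *Rhag* hold it. E-boxes, searched as CANNTG, were in 66.2% of all windows, with 4 before *Epb42*, 1 each before *Gata1*, *Klf1* and *Sptb* and 0 before *Zfpm1* and *Rhag*. A match is a run of letters in this window and not a measured binding site.

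Of the 3 transcription factor genes, 2 were called lower and *Gata1* was not. *Klf1* (ENSMUSG00000054191, chromosome 8, 84901928 to 84905291, GRCm38) had 1179 and 1598 normalized counts in *Pich*-KO samples 1 and 2, against 2461 and 2107 in *Pich*-WT samples 1 and 2. Pairs of values keep this order of samples. Both *Pich*-KO values were below both *Pich*-WT values, with *Pich*-KO sample 1 the lowest. The means were 1389 ± 296 (SD, n = 2) and 2284 ± 250.3 (SD, n = 2), and the log2 fold change was −0.73, with a standard error of 0.16 and a limma adjusted p of 0.0179. Without a filter on the mean the adjusted p was 0.063.

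*Zfpm1* (ENSMUSG00000049577, chromosome 8, 122282141 to 122337251) had 298 and 175 normalized counts in the *Pich*-KO samples against 456 and 404 in the *Pich*-WT samples. The groups did not overlap, but the *Pich*-KO samples differed 1.70-fold from each other, the widest spread within a group among the 8 genes. Its log2 fold change of −0.91 (standard error 0.26) lay just inside the threshold, at an adjusted p of 0.0492 (limma). With a pseudocount of 0.1 the adjusted p was 0.0906, and without a filter on the mean it was 0.118.

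*Gata1* (ENSMUSG00000031162, chromosome X, 7959260 to 7978071) had 883 and 928 normalized counts in the *Pich*-KO samples against 1282 and 1059 in the *Pich*-WT samples. Here too both *Pich*-KO samples were below both *Pich*-WT samples, by a smaller margin. The log2 fold change was −0.36 (standard error 0.14, 95% interval −0.69 to −0.04), which did not pass the threshold after adjustment (limma adjusted p of 0.132). The gene is X-linked, and its lower *Pich*-WT value came from the sample without Y-linked reads, which still lay above both *Pich*-KO samples.

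The ratio of *Klf1* to *Gata1*, both as normalized counts per kilobase, was 2.13 and 2.75 in *Pich*-KO, against 3.06 and 3.17 in *Pich*-WT. The same ratio of *Zfpm1* to *Gata1* was 0.235 and 0.131 against 0.247 and 0.266.

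Of the 5 membrane and skeleton genes, 3 were called lower and 2 were not. *Slc4a1* (ENSMUSG00000006574, chromosome 11, 102348824 to 102366203) had 2080.0 and 2173 normalized counts in the *Pich*-KO samples against 12965 and 11565 in the *Pich*-WT samples. The samples of a group lay close together, 1.04-fold and 1.12-fold apart, and the groups far apart. On the log2 scale *Slc4a1* differed by −2.53 (standard error 0.09, 95% interval −2.74 to −2.31, adjusted p = 9.4e-06, limma).

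*Epb42* (ENSMUSG00000023216, chromosome 2, 121017891 to 121037072) had 299 and 371 normalized counts in the *Pich*-KO samples against 1318 and 1193 in the *Pich*-WT samples. No *Pich*-KO value came near a *Pich*-WT value. On the log2 scale *Epb42* differed by −1.91 (standard error 0.16, 95% interval −2.29 to −1.54, adjusted p = 0.000219, limma).

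*Rhag* (ENSMUSG00000023926, chromosome 17, 40811126 to 40840754) had 984 and 1098 normalized counts in the *Pich*-KO samples against 1911 and 1538 in the *Pich*-WT samples. The groups did not overlap, with *Pich*-WT sample 1 the highest. The log2 fold change was −0.72, with a standard error of 0.14 and a limma adjusted p of 0.0107, close to that of *Klf1*.

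*Sptb* (ENSMUSG00000021061, chromosome 12, 76580488 to 76710547) had 587 and 623 normalized counts in the *Pich*-KO samples against 615 and 564 in the *Pich*-WT samples. It was the one gene of the 8 whose groups overlapped. The log2 fold change was 0.04, with a standard error of 0.15 and a limma adjusted p of 0.904, and its 95% interval ran from −0.30 to 0.37.

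*Ank1* (ENSMUSG00000031543, chromosome 8, 22974844 to 23150497) had 340.3 and 463 normalized counts in the *Pich*-KO samples against 329 and 253 in the *Pich*-WT samples. Both *Pich*-KO values were above both *Pich*-WT values, *Pich*-KO sample 1 by little. The log2 fold change was 0.46 (standard error 0.22, 95% interval −0.05 to 0.97) and did not pass the threshold (limma adjusted p of 0.224). The antisense gene *Gm15816* shares 862 exonic bases with *Ank1* and had 0, 0, 0 and 2 reads in the 4 samples.

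**Figure D2:**
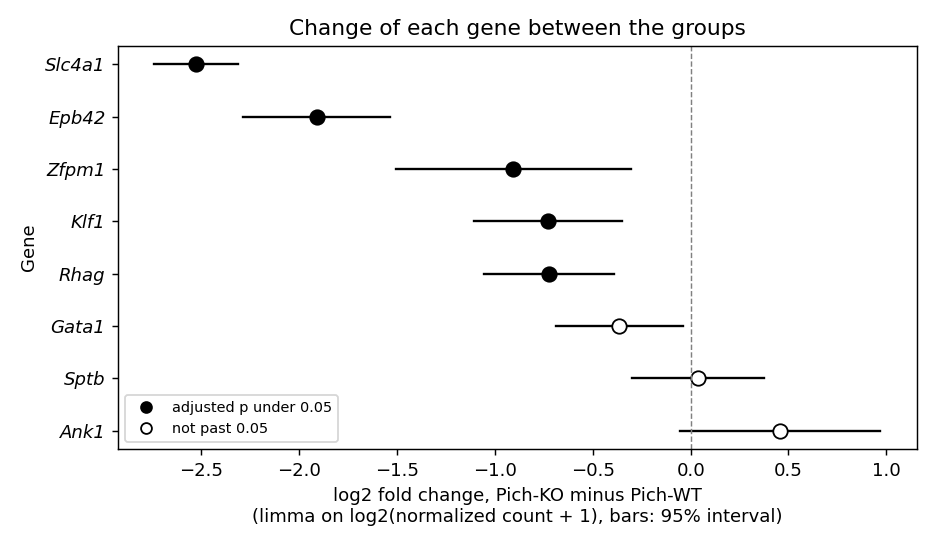
Log2 fold change of each of the 8 genes (horizontal, *Pich*-KO minus *Pich*-WT, limma on log2(normalized count + 1)) with its 95% interval, filled where the adjusted p is under 0.05. The values run from −2.53 for *Slc4a1* to 0.46 for *Ank1*, and the intervals of *Sptb* and *Ank1* include 0.

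In 6 of the 8 genes both *Pich*-KO samples were below both *Pich*-WT samples, and in 1 both were above. Among all genes tested the groups were apart in 56.1%, with *Pich*-KO lower in 27.2% and higher in 28.9%. For a single gene, the smallest two-sided p that exact permutation of 2 against 2 samples allows is 0.333, so the calls draw on the spread that limma pools over genes of similar mean. Without the trend of variance with the mean, 0 of the 8 genes and 0 of all genes passed, and the lowest adjusted p among them was 0.0852, that of *Slc4a1* and *Epb42* (limma). With 1 sample left out, which leaves 1 residual degree of freedom and treats the lone sample as varying like the other group, *Slc4a1* and *Epb42* were called lower without *Pich*-KO sample 1, where 3.7% of all genes tested were. Without *Pich*-KO sample 2, *Pich*-WT sample 1 or *Pich*-WT sample 2, 0 of the 8 and 0 of all genes tested were called, and the 5 genes called lower in the full fit kept a negative log2 fold change in each case. DESeq2 and edgeR on the recovered reads each called 5 of the 8 genes lower, the same 5, where they called 21.6% and 20.7% of all genes with an adjusted p lower.

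Levels of different genes were compared per kilobase of the gene length in the table. In *Pich*-WT the order was *Slc4a1*, with 2508 ± 202 (SD, n = 2) normalized counts per kilobase, then *Klf1* (1493), *Rhag* (737), *Gata1* (480.04), *Epb42* (232), *Zfpm1* (123), *Sptb* (48.5) and *Ank1* (21.5). No neighbours in this order overlapped between samples. In *Pich*-KO the order was *Klf1*, with 908 ± 194, then *Rhag* (445), *Slc4a1* (435), *Gata1* (371), *Zfpm1* (67.5), *Epb42* (61.8), *Sptb* (49.8) and *Ank1* (29.7). *Rhag* and *Slc4a1* could not be separated beyond the spread between samples there, nor could *Zfpm1* and *Epb42*. *Slc4a1* thus went from the first place to a shared second place, and *Epb42* from above *Zfpm1* to its level. These levels spread the reads over the whole exonic length, which overstates the transcript of genes with several isoforms such as *Ank1* and so lowers their level.

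**Figure D3:**
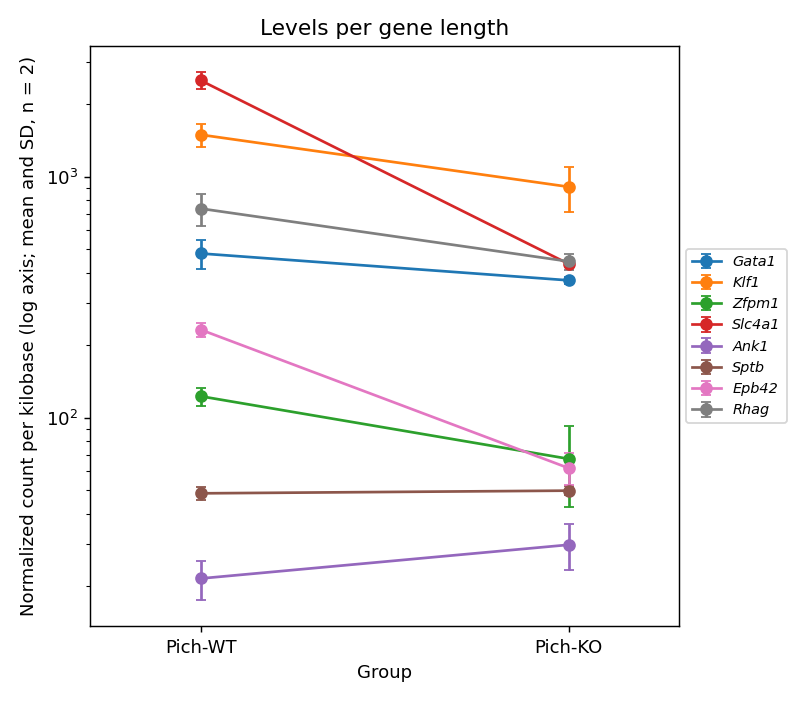
Normalized count per kilobase of gene length (vertical, log axis; mean and SD of 2 samples) of the 8 genes in *Pich*-WT and *Pich*-KO. *Slc4a1* and *Epb42* cross other genes, falling from 2508 to 435 and from 232 to 61.8, while *Sptb* stays near 49.

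Within a sample, the per-kilobase level of *Slc4a1* was 8.80 and 8.67 times that of *Sptb* in *Pich*-KO and 52.4 and 50.9 times in *Pich*-WT. Against *Ank1* it was 16.9 and 13.0 times in *Pich*-KO and 109 and 126 times in *Pich*-WT. Against *Epb42*, the gene with the nearest change, the ratio moved less, from 10.9 and 10.7 in *Pich*-WT to 7.71 and 6.50 in *Pich*-KO. These ratios compare genes inside a library and so do not depend on the size factors.

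Lists of related genes were set beside the 8 genes as a description, with no test of a list. Of 24 other genes of the red-cell membrane, 23 were in the table, and 14 were lower and 1 was higher at an adjusted p of 0.05 (limma), with a median log2 fold change of −0.77. *Aqp1*, a water channel that endothelial cells also make, fell most. Its normalized count averaged 6615 ± 1393 (SD, n = 2) in *Pich*-WT and 499 ± 6.71 (SD, n = 2) in *Pich*-KO, or −3.71 on the log2 scale. *Rhd*, the partner of RhAG in the Rh complex, fell from 2878 and 2218 to 658 and 776, or −1.82 on the log2 scale, where *Rhag* had −0.72. *Dmtn*, *Add1* and *Add2*, which encode dematin and adducins of the junctions between spectrin and actin, also fell. *Xk*, a membrane protein gene on the X chromosome whose product binds the Kell protein, was the one called higher, with 488 and 539 normalized counts in the *Pich*-KO samples against 366 and 321 in the *Pich*-WT samples (limma adjusted p of 0.0491), but not with a pseudocount of 0.1 (adjusted p = 0.0609) or without a filter on the mean (0.0751).

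*Epb41*, the gene of protein 4.1, which joins spectrin to actin, had 2825 and 2734 against 3683 and 3226 and did not pass (adjusted p of 0.0853, limma). *Rhd*, *Dmtn*, *Add1*, *Add2* and *Epb41* were named after their values had been seen.

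Of 21 other transcription regulators of the erythroid lineage, 9 were lower and 3 higher (limma), with a median of −0.27. *Mxi1*, a repressor of the MYC network, fell most, from 825 and 720 to 200 and 158, a log2 fold change of −2.11. *Runx1*, a factor of stem and progenitor cells, rose most, from 854 and 1053 to 2905 and 2331, a log2 fold change of 1.46, and *Lyl1* and *Myb* rose too. Among the proteins that bind DNA together with GATA1, *Tal1* (−0.65), *Lmo2* (−0.49) and *Ldb1* (−1.06) were each called lower in log2 fold change. *Gata2*, which precedes *Gata1* in the lineage, fell from 1597 and 1852 to 1287 and 1030, a log2 fold change of −0.58 (limma adjusted p of 0.0317), and the per-kilobase ratio of *Gata1* to *Gata2* was 1.52 and 1.99 in *Pich*-KO, against 1.78 and 1.27 in *Pich*-WT, so that it overlapped. *Gfi1b*, a repressor that GATA1 activates, had 943 and 1012 against 1010.5 and 914, and overlapped between groups. *Tal1*, *Lmo2*, *Ldb1*, *Gata2*, *Gfi1b*, *Lyl1* and *Myb* were named after their values had been seen.

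Of 16 other erythroid genes, 12 were lower and 0 higher (limma), with a median of −0.99. *Trim10*, a ligase gene of late erythroblasts, fell most, from 1645 and 1422 to 218 and 285, or −2.61 on the log2 scale. *Epor*, the receptor for erythropoietin, fell least among those called, from 1302 and 1234 to 592 and 918, which is −0.78 on the log2 scale (limma adjusted p of 0.0335), and was not called with a pseudocount of 0.1 (adjusted p = 0.071) or without a filter on the mean (0.0973). Of 8 heme synthesis enzymes, 6 were lower and 0 higher. *Alas2*, the first enzyme of the pathway in red-cell precursors, fell most (5106 and 3506 to 539 and 471). Of 7 globin genes, 5 were lower and 0 higher, from *Hbb-bs* (−3.17 on the log2 scale) to *Hba-a2* (−1.76, limma adjusted p of 0.0418). *Hba-a2* is nearly identical to *Hba-a1*, so reads may have been split between them, and its *Pich*-WT samples differed 3.69-fold. It was not called with a pseudocount of 0.1 (limma adjusted p of 0.104) or with no filter (0.141).

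The 8 genes have relatives that other cells use, and 17 such paralogs were set beside them, of which 6 were lower and 2 higher (limma) with a median of −0.49. The 2 that rose were both spectrins. *Sptan1*, the alpha-spectrin of most cells, rose from 481 and 388 to 851 and 704, which is 0.84 on the log2 scale (limma adjusted p of 0.0134). *Sptbn1*, its beta-spectrin partner, rose from 1067 and 1062 to 1940.4 and 1577, which is 0.72 on the log2 scale (limma adjusted p of 0.0085). The per-kilobase ratio of *Sptb* to *Sptbn1* was 0.435 and 0.569 in *Pich*-KO, against 0.830 and 0.765 in *Pich*-WT. *Tgm2*, the transglutaminase related to protein 4.2 and made by macrophages and endothelial cells, fell most, from 2713 and 2740 to 561 and 462. *Slc4a2*, the anion exchanger of most cells, had 457 and 499 against 593 and 758 (limma adjusted p of 0.0973). The other ankyrin genes *Ank2* and *Ank3* had 27 to 55.6 normalized counts in every sample and did not pass. *Slc4a2*, *Ank2* and *Ank3* were named after their values had been seen.

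**Figure D4:**
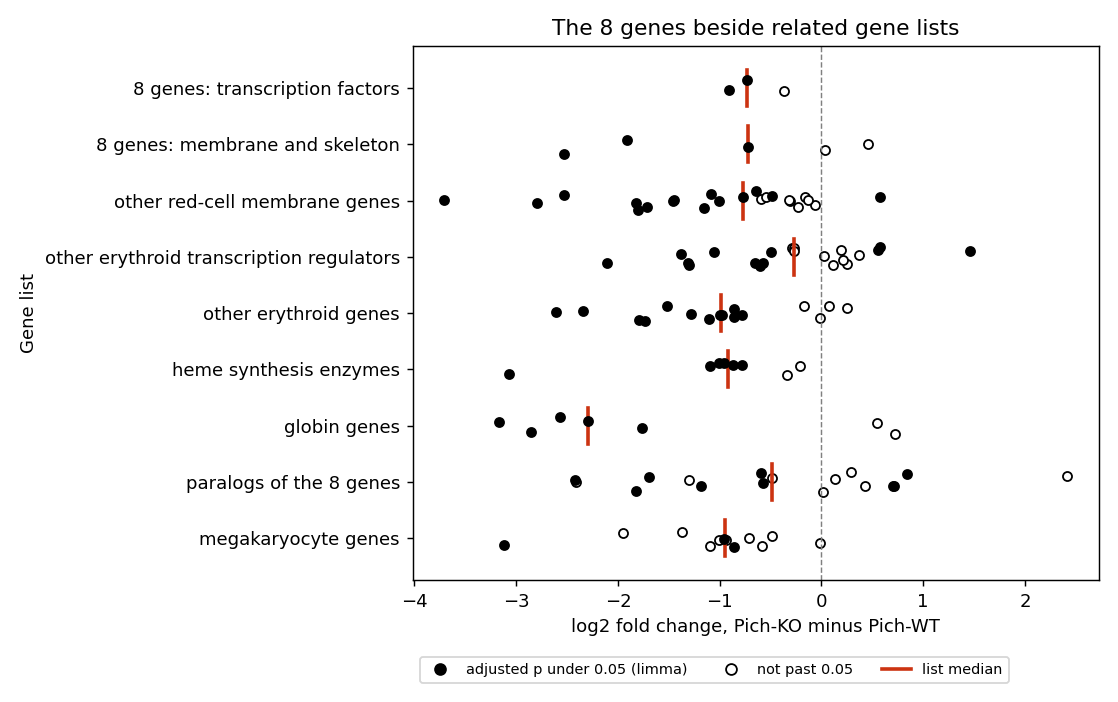
Log2 fold change (horizontal, *Pich*-KO minus *Pich*-WT) of each tested gene of 9 lists (vertical; the first 2 are the 8 genes), filled where the adjusted p is under 0.05 by limma, with a red line at each list's median. The globin list has the lowest median, at −2.29, and the spectrins *Sptan1* and *Sptbn1* are the filled points right of 0 among the paralogs.

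*Gata1* and *Zfpm1* also act in megakaryocytes, and *Gata1* in mast cells and eosinophils. Of 12 megakaryocyte genes, 3 were lower and 0 higher (limma), with a median of −0.95. Among all genes tested 9.6% were lower, and among those averaging 100 or more 22.4%, so this count is near the latter share. *Pf4*, a platelet chemokine, fell from 2362 and 1828 to 200 and 284, and *Itga2b*, a platelet integrin, from 1204 and 716 to 546 and 481 (limma adjusted p of 0.0431). With a pseudocount of 0.1 this p was 0.0886, and with no filter it was 0.118. The other one lower was *Gp9*, of a platelet glycoprotein. Of 7 mast cell, basophil and eosinophil genes, 3 were higher and 0 lower, and *Cpa3*, a mast cell protease, rose from 134 and 96 to 498 and 437. The others that rose were *Hdc*, which makes histamine, and *Ms4a2*, a chain of the IgE receptor. The summed count of these genes was 2875 and 2841 in *Pich*-KO, but 709 and 3134 in *Pich*-WT, so the sums overlapped. In this list the *Pich*-WT samples differed widely in *Prg2* (277 and 2173) and *Epx* (37.5 and 457).

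Markers of macrophages, endothelium and, in part, hepatocytes, which an LSK sort should leave out, were also lower in *Pich*-KO. The difference was largest for those of macrophages and endothelium. All 13 macrophage markers were called lower in *Pich*-KO (limma), and their summed normalized count was 9256 and 8073 in *Pich*-KO against 63232 and 65665 in *Pich*-WT. *Adgre1* went from 6617 and 6927 to 273 and 205, and *C1qa* from 3625 and 3540 to 73.1 and 68.2. All 6 endothelial markers were called lower, with sums of 1015 and 544 against 23846 and 15476, *Cdh5* at 127 and 71.6 against 2122 and 1673 and *Stab2* at 146 and 110.3 against 4098 and 2923. Of 8 hepatocyte markers, 5 were called lower, with sums of 3057 and 2583 against 4741 and 4194. *Alb*, the gene of albumin, fell from 964 and 1015 to 563 and 548, while *Afp*, that of alpha-fetoprotein, had 1957 and 1379 against 2509 and 2207 and did not pass. In these 3 lists, 0 genes were at 0 in both samples of a group. The part of these cells in the lower values of the 5 genes called was not tested. The antibodies that the study names for lineage depletion were against Ter119, a red-cell antigen, and against CD4, CD8, B220 and Gr-1. Of 4 genes of the antigens it names, 1, *Cd4*, was called lower and 0 higher.

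Of 9 LSK markers, 1 was higher and 4 were lower, the stem cell genes *Hlf*, *Mecom*, *Procr* and *Slamf1*. *Kit* had 4447 and 2773 normalized counts in the *Pich*-KO samples against 2328 and 2513 in the *Pich*-WT samples, and *Ly6a*, the gene of Sca-1, had 3586 and 2978 against 901 and 1061. The per-kilobase level of *Slc4a1* was 0.852 and 1.43 times that of *Kit* in *Pich*-KO and 10.1 and 8.38 times in *Pich*-WT. A gene that rises late in the red-cell lineage thus stood above a defining LSK gene in both *Pich*-WT libraries and, by less, in *Pich*-KO sample 2. For *Gata1* this ratio was 0.726 and 1.22 against 2.01 and 1.54. *Gp9*, *Hdc*, *Ms4a2*, *Prg2*, *Epx*, *Cd4*, *Cd8a*, *Ly6g*, *Hlf*, *Mecom*, *Procr* and *Slamf1* were also named after their values had been seen.

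**Figure D5:**
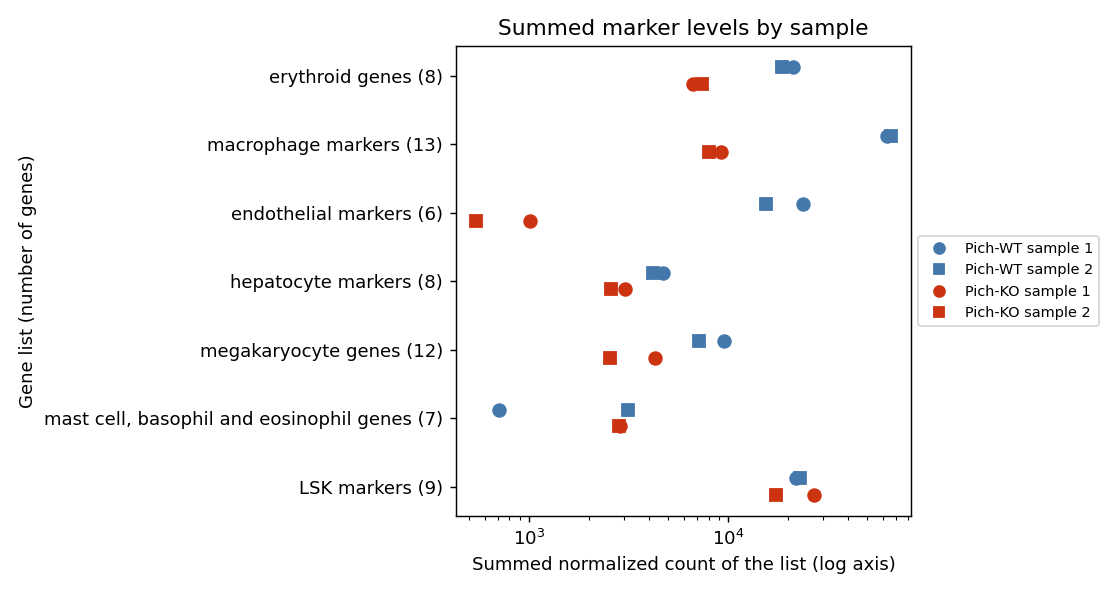
Summed normalized count (horizontal, log axis) of the 8 genes and of 6 marker lists (vertical, with the number of genes) in each sample, with *Pich*-WT in blue, *Pich*-KO in red, circles for sample 1 and squares for sample 2. The 8 genes sum to 6650.0 and 7429 in *Pich*-KO, against 21337 and 18683 in *Pich*-WT, and the macrophage and endothelial lists are set wider apart, while the LSK markers overlap.

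The genes whose pattern over the 4 samples was most like the median of the 8 were *Gfod2*, *Cytip*, *Mtss1*, *Commd10* and *Rgs10*, out of 10536 other genes with a mean of at least 100. Likeness was the distance between log2 values centred on the mean of the 4 samples, and it was 0.09 for *Gfod2* and 0.11 for the other 4. Of the 8 genes themselves, *Rhag* was nearest to their median, at 0.13, and *Slc4a1* farthest, at 1.90. *Cytip* had 711 and 792 normalized counts in the *Pich*-KO samples against 1329 and 1075 in the *Pich*-WT samples. With 4 samples in 2 groups, such likeness is mostly a like difference between the groups.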

How the data were processed

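The authors deposited one table whose sample values are a signal, made from reads on genes scaled by a factor for each library. Its group means and the fold changes and p-values of the authors' own comparison were not used, and 0 columns of per-sample values were left out. The submitters' processing notes name Bowtie 0.12.2 and the builds mm8 and mm9. However, the coordinates of 97.8% of the 39131 genes matched to GENCODE M21 were those of GRCm38, which is used here. The counting tool and its strand setting are not given in the sources used here.

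Reads were recovered from the steps between values, and 100% came out whole within 0.01 reads. They totalled 15195434 and 14703215 in *Pich*-KO, against 20933919 and 15567891 in *Pich*-WT. Replicates differed beyond counting noise (chi-square over its degrees of freedom 17.7 for *Pich*-KO, 9.54 for *Pich*-WT). The main test was limma 3.58.1 in R 4.3.3 on log2(value + 1) with a variance trend, for a mean of 1 or more and with Benjamini-Hochberg adjustment. This scale understates the change of low genes, and fold values without log2 are ratios of group means. Alternatives were a pseudocount of 0.1, no filter, at least 10 in every sample, no variance trend, a replicate block, each sample left out, DESeq2 1.42.0 and edgeR 4.0.16 with TMM. On recovered reads edgeR gave 3097 higher and 3436 lower genes. The code was tested on simulated counts.

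The genes and lists were chosen with earlier results of these data known. Named genes are the 8 genes, both extremes among the called genes of each related list, defining markers, *Ercc6l* and the 5 genes of most similar pattern. Others are said to have been chosen after their values were seen. *Icam4* was not analysed here, and the values of a few further list genes are not reported here.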

Additional observations from a re-analysis of the deposited data

How the results depend on the processing

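The 5 genes called lower were also the 5 called by DESeq2, by edgeR, with at least 10 in every sample and with the replicate block. A pseudocount of 0.1 left 4 of them, without *Zfpm1*, and no filter on the mean left 3, without *Klf1* and *Zfpm1*. Among all genes, 3113 of 32428 were lower in the main fit, 2651 of 32428 with this pseudocount and 2326 of 39186 with no filter. With at least 10 in every sample 3189 of 13928 genes were lower, and with the replicate block 3874 of 32428. Without a variance trend limma called 0 genes in every list and 0 of all genes in either direction, with 7377 at an unadjusted p under 0.05, of which 3 were among the 8. With no filter, counts became 5 lower among the transcription regulators, 3 lower among the paralogs (3 with a pseudocount of 0.1 too) and 1 lower among the megakaryocyte genes, and the membrane list had 0 higher under both settings. Megakaryocyte genes lower numbered 5 by DESeq2, 5 with at least 10 in every sample and 7 with the replicate block. Samples with the same number did not vary together (correlation of deviations 0.01), so the block was not used, and it changed no call among the 8 genes. Leaving out each sample in turn, all genes called ranged from 0 to 548 higher and from 0 to 1193 lower. The genes lower ranged from 0 to 2 of the 8, 0 to 6 for the membrane list, 0 to 3 for the transcription regulators, the other erythroid genes, the globins and the paralogs, and 0 to 2 for heme synthesis and the megakaryocyte list, and those higher were 0 among the 8 genes and these 7 lists. The log2 fold change of *Sptb* turned to −0.0053 without *Pich*-KO sample 2 and to −0.025 without *Pich*-WT sample 2, so that it ranged from −0.025 to 0.10, and that of *Zfpm1* ranged from −1.29 to −0.53. The cause of these shifts was not tested.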
